A study of Homo sapiens with 18 samples.

Results

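Lysosome and autophagy genes were described here as a set of 49 named genes: the soluble enzymes and cofactors of the lysosome, its membrane proteins, the subunits of its proton pump, the autophagy factors and the transcription factors of the TFEB family. The members were taken by gene symbol and all 49 were found, among 25673 genes in the RKO table, 19881 in the COLO 201 table and 19977 in the H1975 table. The list was drawn up with results of these data known. CD68, WIPI1 and C9ORF72 were selected on their measured values, since they stood higher with doxycycline in every line, so their values are given as a description without a test, and the p-values of the other 46 members are not independent support for the list.

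Lysosomes are acidic organelles in which proteases, glycosidases and lipid-handling proteins digest material that arrives by endocytosis or autophagy. A proton-pumping ATPase in the lysosomal membrane keeps the lumen acidic. In autophagy a membrane sheet grows around cytoplasmic cargo, ATG8-family proteins are coupled to its lipids, receptors such as p62 tether cargo to them, and the closed vesicle fuses with a lysosome. TFEB, TFE3 and MITF are transcription factors that bind E-box sequences in the promoters of many of these genes, and the Rag GTPases on the lysosome surface help to hold TFEB and TFE3 in the cytoplasm when nutrients are plentiful.

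The series holds 18 mRNA libraries from 3 established human cancer lines, RKO and COLO 201 of the colon and H1975 of the lung. Every line carried the construct tet-MUC1shRNA, a doxycycline-inducible short hairpin RNA against the mucin gene MUC1, with puromycin resistance. In each line 3 columns held cells given 500 ng/ml doxycycline and 3 held cells given 0.1% DMSO as vehicle, in medium with 10% serum. All sample records carried the same agent entry, so the arms were read from the column headings, and in the RKO table the headings of the vehicle columns lacked a minus sign, so that their reading as vehicle was inferred. The construct held 1 hairpin, and no line with a control hairpin under doxycycline entered the comparison, so a change in MUC1 and an effect of doxycycline or of hairpin expression cannot be told apart. Cells were cultured in triplicates, which may be technical, and the p-values then measure only the spread between these samples.

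Values were TPM, a measure of transcript abundance that corrects for transcript length. They had the same sum in each column, so the read depth behind each value is unknown. The 3 tables were normalized separately and levels are compared within a line only. Small noncoding RNA made up a large part of the RKO table, 71.1% to 78.7% of the TPM with doxycycline and 67.8% to 72% with vehicle, and mitochondrially encoded genes had none. Mitochondrially encoded genes took 16.9% to 18.6% with doxycycline and 20.1% to 23.0% with vehicle in COLO 201, and 16.1% to 17.4% and 17.4% to 22.5% in H1975. Vehicle column 1 of RKO stood apart from the other 2 vehicle columns: it had 16935 genes above 0, against 14935 to 15165, and its summed fibroblast and endothelial markers came to 783 TPM, against 8.17 and 7.12 TPM. For part of the RKO results the values without it are given as well. The same marker sum ran from 2.50 to 3.80 TPM with doxycycline in RKO, from 12.5 to 13.9 TPM with doxycycline and 32.5 to 35.4 TPM with vehicle in COLO 201, and from 810.4 to 908 TPM with doxycycline and 999 to 1124 TPM with vehicle in H1975, and its part in the results was not tested. The sum of 9 colon markers was 9.63 to 14.05 TPM with doxycycline and 7.08 to 12.1 TPM with vehicle in RKO, where VIL1, KRT20 and GPA33 were at 0 in every column. The sum of 9 lung markers was 2074 to 2211 TPM with doxycycline and 2592 to 3159 TPM with vehicle in H1975, where SFTPC and SCGB1A1 were at 0 in every column. KRT7 made up most of it, at 2034 to 2167 TPM with doxycycline and 2548 to 3111 TPM with vehicle. The colon sum in H1975 was 520 to 592 TPM with doxycycline and 386 to 453 TPM with vehicle, mostly EPCAM. In COLO 201 the colon sum, also mostly EPCAM, was 982 to 1078 TPM with doxycycline and 1138 to 1182 TPM with vehicle. The lung sum there was 85.9 to 90.6 and 78.8 to 85.1 TPM.

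MUC1 had 0.108, 0.105 and 0.204 TPM with doxycycline in RKO, against 15.2, 1.24 and 1.03 TPM with vehicle. It averaged 1.78 ± 0.250 TPM with doxycycline and 13.9 ± 0.940 TPM with vehicle in COLO 201, and 8.01 ± 1.35 and 97.5 ± 9.98 TPM in H1975 (SD, n = 3 columns each). The arms did not overlap in any line, and an exact two-sided permutation test gave p = 0.1 in each, the smallest p that 3 against 3 columns allow. In the limma fit across all genes, on log2(TPM + 1), MUC1 changed by -1.88 in RKO (adjusted p = 0.0027), -2.43 in COLO 201 (adjusted p = 3.5e-10) and -3.46 in H1975 (adjusted p = 4.1e-11). The RKO call was lost without doxycycline column 1 (adjusted p = 0.17) or column 2 (adjusted p = 0.082). Without vehicle column 1 the RKO change was -0.90, and MUC1 then averaged 0.537 TPM, under the minimum, and was not tested. With small noncoding genes removed as well, a setting chosen after seeing the data, MUC1 reached the minimum and changed by -1.61 (adjusted p = 1.5e-06). In RKO, MUC1 reached the minimum only through its vehicle columns, here and as deposited, so the filter itself favoured a fall.

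CD68, WIPI1 and C9ORF72 were the members chosen for this contrast. CD68 encodes a heavily glycosylated protein of late endosome and lysosome membranes that is abundant in macrophages. WIPI1 encodes a protein that binds phosphatidylinositol 3-phosphate on the forming autophagosome, and C9ORF72 encodes the partner of SMCR8 in a complex that acts in autophagy and at the lysosome. In GENCODE release 29 on GRCh38, CD68 lies on chromosome 17 from 7579467 to 7582113 on the plus strand, WIPI1 on chromosome 17 from 68420948 to 68457513 on the minus strand, and C9ORF72 on chromosome 9 from 27546545 to 27573866 on the minus strand.

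In RKO, CD68 had 392, 489 and 452 TPM with doxycycline, against 121, 262 and 218 TPM with vehicle. In COLO 201 it had 99.3, 111 and 116 TPM with doxycycline, against 64.1, 68.4 and 66.7 TPM with vehicle. In H1975 it had 308, 327 and 277 TPM with doxycycline, against 158, 157 and 165 TPM with vehicle. Every doxycycline column lay above every vehicle column in each line, and the ratio of means was 2.22 in RKO, 1.64 in COLO 201 and 1.90 in H1975. The summed level of 14 macrophage and leukocyte markers ran from 0.118 to 0.189 TPM with doxycycline and from 0.0736 to 0.747 TPM with vehicle in RKO, with 6 of them at 0 in every column. It ran from 2.46 to 2.85 TPM with doxycycline and 3.22 to 4.02 TPM with vehicle in COLO 201 (3 markers at 0), and from 9.10 to 10.7 TPM with doxycycline and 11.8 to 13.1 TPM with vehicle in H1975 (4 at 0). TYROBP, an adaptor of myeloid receptors, was at 0 in all columns. In bulk RNA, fewer cells of a type and less RNA per cell cannot be told apart.

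In RKO, WIPI1 had 10.2, 14.8 and 12.1 TPM with doxycycline, against 4.97, 7.66 and 6.54 TPM with vehicle. In COLO 201 it had 22.2, 22.7 and 22.7 TPM with doxycycline, against 11.9, 12.4 and 12.1 TPM with vehicle. In H1975 it had 23.3, 24.5 and 24.0 TPM with doxycycline, against 14.6, 15.1 and 15.04 TPM with vehicle. Again no arms overlapped, and the replicate columns of COLO 201 and H1975 lay close together while those of RKO were spread more widely. C9ORF72 was among the lower members by vehicle mean in every line. It had 5.95, 9.77 and 6.93 TPM with doxycycline in RKO, against 1.54, 2.72 and 2.57 TPM with vehicle. The COLO 201 columns had 2.69, 3.11 and 2.69 TPM with doxycycline and 1.37, 1.44 and 1.44 TPM with vehicle, and the H1975 columns 13.3, 12.3 and 14.6 TPM with doxycycline and 6.38, 7.25 and 6.52 TPM with vehicle. The ratio of C9ORF72 means was 3.31 in RKO, 2.00 in COLO 201 and 1.99 in H1975.

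On the log2(TPM + 1) scale, which understates the change of low genes, the changes of CD68 were 1.21 ± 0.25 in RKO, 0.70 ± 0.05 in COLO 201 and 0.92 ± 0.07 in H1975 (SE, n = 3 columns per arm). Those of WIPI1 were 0.85 ± 0.20, 0.84 ± 0.05 and 0.65 ± 0.07 in the same order of lines, and those of C9ORF72 were 1.38 ± 0.20, 0.66 ± 0.08 and 0.90 ± 0.08. With each column left out in turn, the RKO change ran from 0.89 to 1.44 for CD68, from 0.71 to 0.98 for WIPI1 and from 1.20 to 1.52 for C9ORF72. Without vehicle column 1 and with the remaining RKO columns rescaled by their median ratio, the changes were 1.20, 0.99 and 1.45. WIPI1 overlaps ARSG on the opposite strand and CD68 overlaps AC016876.2 on its own strand and AC016876.1 on the opposite strand, and how shared reads were counted is not given in the sources used here.

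**Figure D1:**
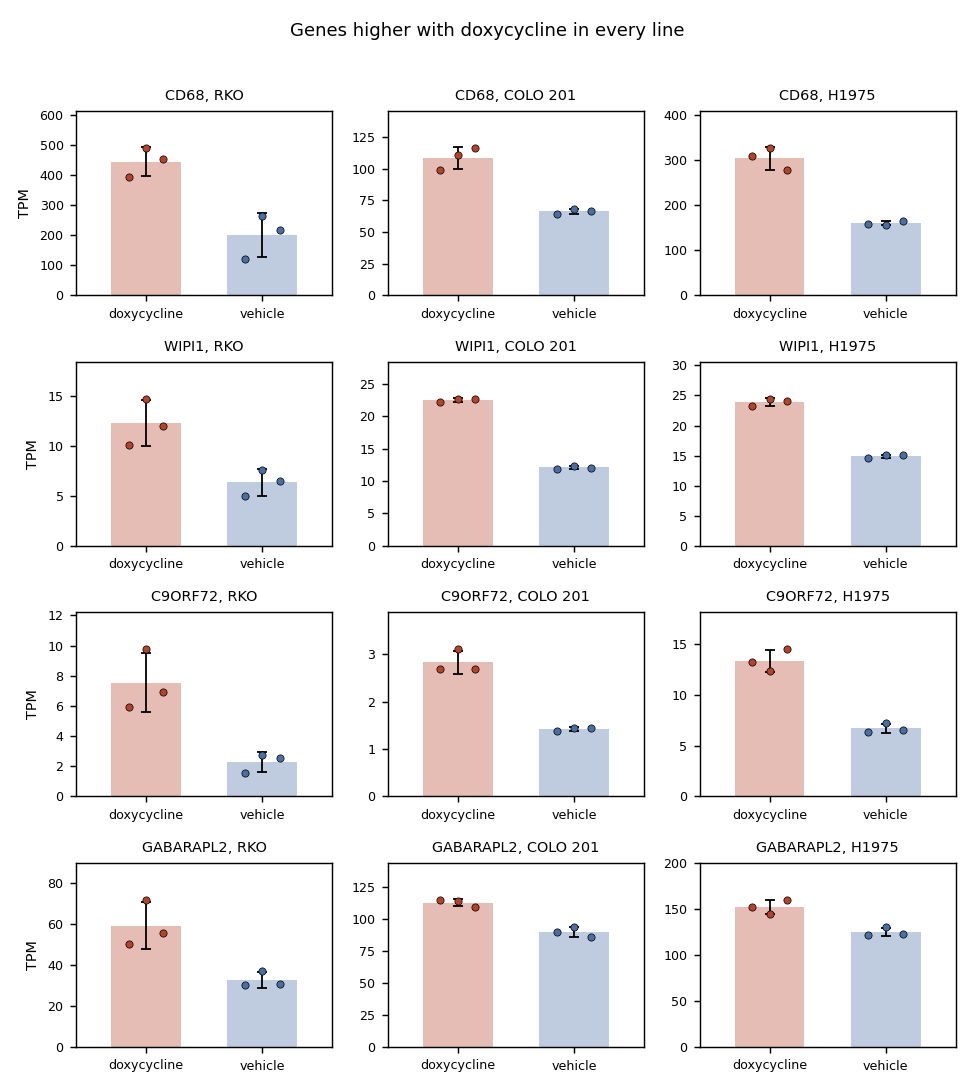
TPM of CD68, WIPI1, C9ORF72 and GABARAPL2 in every column, with doxycycline on the left and vehicle on the right, by line; points are columns, bars are means and each panel has its own TPM axis from 0. In all panels the 3 doxycycline columns lie above the 3 vehicle columns. CD68, WIPI1 and C9ORF72 were chosen for this contrast and carry no test.

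Of the other 46 members, 42 had a mean of at least 1 TPM in RKO, 43 in COLO 201 and 45 in H1975, and these were tested with limma with Benjamini-Hochberg adjustment over all genes tested in the line. At an adjusted p under 0.05, 2 of 42 rose and 3 fell in RKO, where 2.09% of all genes tested rose and 16.1% fell. In COLO 201, 30 of 43 rose and 4 fell, beside 45.9% and 15% of all genes. In H1975, 13 of 45 rose and 4 fell, beside 23.9% and 14.6%. Counted without a test, every doxycycline column lay above every vehicle column for 4 tested members in RKO, 28 in COLO 201 and 20 in H1975 (3.9%, 48.5% and 30.7% of all genes), and below for 5, 4 and 5 (32.4%, 16.6% and 18.4%). The median change of the tested members was -0.13 in RKO, 0.27 in COLO 201 and 0.11 in H1975, and that of all genes tested was -0.26, 0.12 and 0.06. The list was chosen with this contrast known, so nothing is read from its share against the background.

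Rescaling the columns by their median ratio moved the median change of all genes by 0.25 in RKO, -0.12 in COLO 201 and -0.04 in H1975. After rescaling, 13 members rose and 2 fell in RKO (13.8% and 14% of all genes), 25 rose and 7 fell in COLO 201 (27.3% and 29.7%), and 13 rose and 5 fell in H1975 (21.2% and 18.5%). By role, rescaling in COLO 201 left 2 of the membrane proteins called higher, 6 of the glycosidase group, 1 of the TFEB family and none of the nutrient genes. Without vehicle column 1 and rescaled, 23 members rose and 6 fell in RKO, where 29.1% and 29.8% of all genes did.

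**Figure D2:**
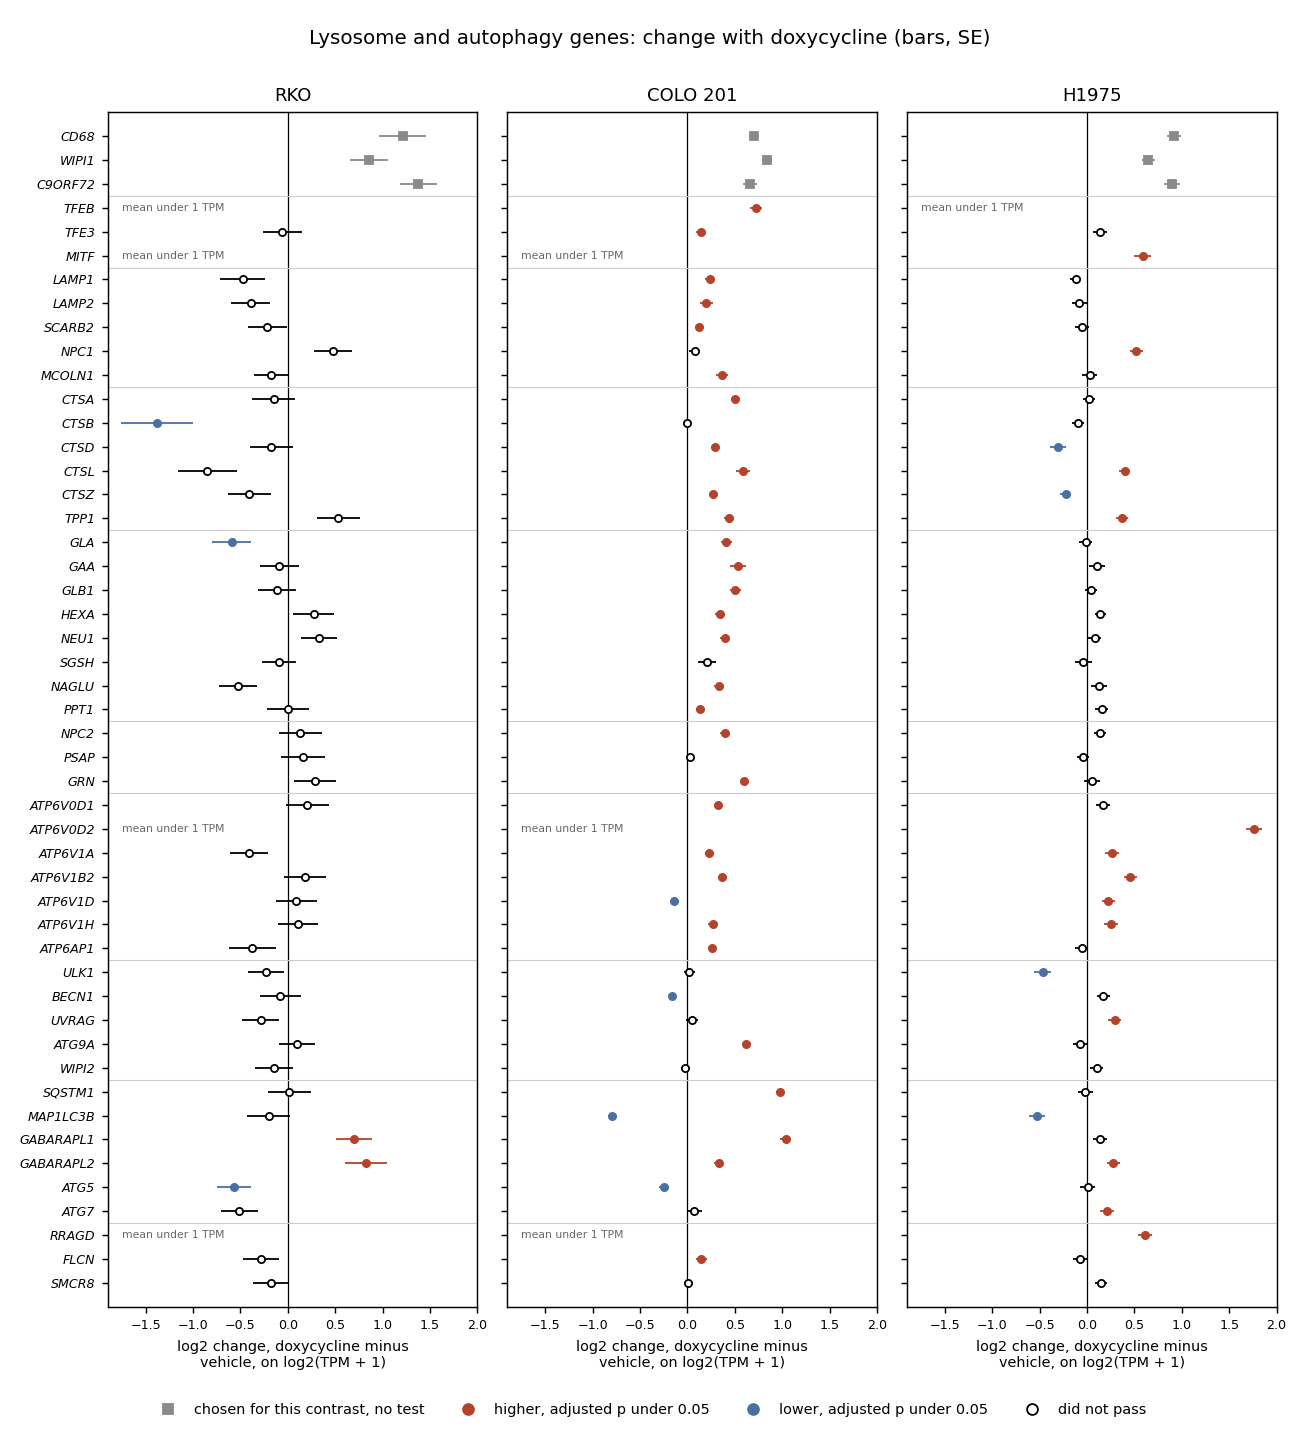
Change of each member with doxycycline minus vehicle on log2(TPM + 1), in 1 panel per line; points are limma estimates, bars are their SE, colours give the call at an adjusted p under 0.05, and grey squares are the 3 genes chosen for this contrast. Most COLO 201 points lie to the right of 0 (37 members above 0), the H1975 points lie closer to 0 apart from ATP6V0D2 at 1.76, and the RKO points have the widest bars.

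Of the TFEB family, TFEB rose in COLO 201 and MITF in H1975, and TFE3 was tested in every line. TFEB, at chromosome 6 from 41683978 to 41736259 on the minus strand, had 5.96, 5.99 and 5.67 TPM with doxycycline in COLO 201, against 2.94, 3.21 and 3.33 TPM with vehicle. The arms stood well apart, and TFEB rose by 0.73 ± 0.07 (adjusted p = 1.7e-06). In RKO it had 0.531, 0.676 and 0.691 TPM with doxycycline and 0.369, 0.560 and 0.581 TPM with vehicle, and in H1975 0.485, 0.430 and 0.363 TPM with doxycycline and 0.559, 0.651 and 0.542 TPM with vehicle. Both lie under the minimum of 1 TPM and were not tested as deposited. With small noncoding genes removed from RKO, TFEB reached the minimum and changed by 0.41 (adjusted p = 0.15). When vehicle column 1 was left out too, a setting chosen after seeing the data, it changed by 0.30 (adjusted p = 0.054).

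MITF, the family member best known from pigment cells and osteoclasts, lies on chromosome 3 from 69739435 to 69968337 on the plus strand. It had 42.4, 41.0 and 48.1 TPM with doxycycline in H1975, against 25.8, 31.9 and 28.8 TPM with vehicle, and rose by 0.59 ± 0.09 (adjusted p = 1.5e-04). Elsewhere MITF was low: 0.524, 0.442 and 0.351 TPM with doxycycline and 0.0617, 0.135 and 0.148 TPM with vehicle in COLO 201, and 0.515, 0.748 and 0.592 TPM with doxycycline and 0.611, 0.586 and 0.533 TPM with vehicle in RKO. With small noncoding genes removed MITF reached the minimum in RKO and changed by 0.24 (adjusted p = 0.27). When vehicle column 1 was left out too, it changed by 0.29 (adjusted p = 0.046).

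TFE3 was the member of the family above the minimum in every line. In COLO 201 it had 22.0, 22.5 and 22.4 TPM with doxycycline, against 18.9, 20.7 and 20.7 TPM with vehicle, a rise of 0.14 ± 0.05 (adjusted p = 0.026) that was 0.02 after rescaling (adjusted p = 0.77). In H1975 it had 77.2, 79.7 and 70.4 TPM with doxycycline and 65.9, 69.4 and 70.8 TPM with vehicle, with overlapping arms (adjusted p = 0.13). The RKO columns overlapped too, with 13.3, 18.1 and 16.6 TPM with doxycycline and 15.7, 18.2 and 15.9 TPM with vehicle; the change was -0.06 as deposited and 0.23 after rescaling.

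**Figure D3:**
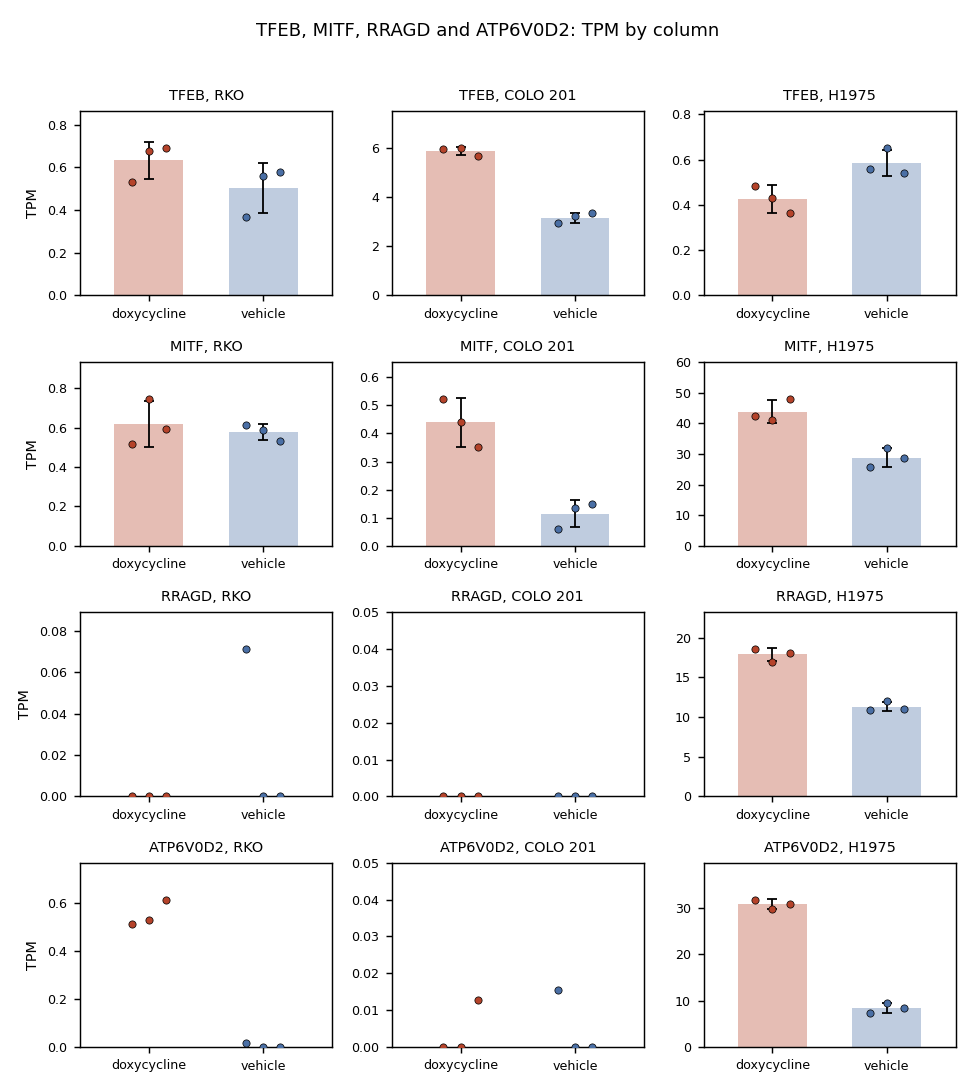
TPM of TFEB, MITF, RRAGD and ATP6V0D2 in every column, with doxycycline on the left and vehicle on the right, by line; points are columns, bars are means where no column is at 0, and each panel has its own TPM axis. TFEB reaches 5.67 to 5.99 TPM with doxycycline in COLO 201, and the other 3 genes are above 1 TPM in H1975 alone, each with its doxycycline columns above its vehicle columns.

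The E-box CACGTG and its flanked form TCACGTGA, the CLEAR element that TFEB binds, were searched in RefSeq promoter windows of GRCh38.p14, from 250 bases before to 50 bases after each gene's start. Both are their own reverse complement, so either strand is covered, and TCACGTGA contains CACGTG. Promoter entries were matched for 37 of the 49 members. CACGTG stood in the windows of 7 of these genes (18.9%) and of 8.77% of all 27305 genes in the table, and TCACGTGA in 5 (13.5%) and 1.18%. The list was not drawn blind to what is known of TFEB targets, and a match is a description of these letters, not of binding. The 7 members are printed with 30 bases each on the gene's strand, because they are the ones whose promoter letters can be set beside their changes; capitals mark TCACGTGA or CACGTG.
LAMP1: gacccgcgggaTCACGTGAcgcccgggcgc
ATP6V0D1: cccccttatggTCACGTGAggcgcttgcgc
GAA: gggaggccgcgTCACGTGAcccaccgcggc
MCOLN1: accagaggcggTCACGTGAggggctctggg
CTSA: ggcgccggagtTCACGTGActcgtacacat
NEU1: atgctgcgtgatCACGTGggaggagatgag
CTSD: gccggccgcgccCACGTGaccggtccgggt

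These stretches lie at chr13:113297199-113297228 on the plus strand for LAMP1, chr16:67481199-67481228 on the minus strand for ATP6V0D1, chr17:80101493-80101522 on the plus strand for GAA and chr19:7522571-7522600 on the plus strand for MCOLN1. Those of CTSA, NEU1 and CTSD lie at chr20:45891298-45891327 on the plus strand, chr6:31862930-31862959 on the minus strand and chr11:1763957-1763986 on the minus strand. The first base of the printed CACGTG lay 25 bases before the start in CTSA, 28 in LAMP1, 41 in MCOLN1, 47 in CTSD, 59 in ATP6V0D1, 76 in GAA and 126 in NEU1. The windows of LAMP1, GAA, MCOLN1 and CTSA held further CACGTG sites that are not printed. In COLO 201 all 7 rose, by 0.24 to 0.54 with a median of 0.36, and of the 26 tested members with an entry and no CACGTG in the window 17 rose and 4 fell, with a median of 0.20. In H1975, 0 of the 7 rose and 1 fell (median 0.03), against 7 risen and 3 fallen of 26 (median 0.12). In RKO none of the 7 passed (median -0.15), against 2 risen and 2 fallen of 25 (median -0.11). Among all genes tested, 45.9% rose and 15% fell in COLO 201, 23.9% and 14.6% in H1975, and 2.09% and 16.1% in RKO. The difference between members with and without the motif was not tested.

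Membrane proteins of the lysosome rose in 4 of 5 cases in COLO 201, in 1 of 5 in H1975 and in 0 of 5 in RKO, and none fell as deposited. Of all genes, 45.9%, 23.9% and 2.09% rose in these lines and 15%, 14.6% and 16.1% fell. LAMP1, an abundant glycoprotein that lines the inner face of the lysosomal membrane and holds the first of the promoter sequences above, had 64.5, 66.3 and 63.5 TPM with doxycycline in COLO 201, against 54.2, 57.8 and 52.7 TPM with vehicle, and rose by 0.24 ± 0.04 (adjusted p = 6e-04; 0.10 after rescaling). In H1975, LAMP1 had 199, 202 and 200.3 TPM with doxycycline, below the 209, 222.2 and 222.5 TPM with vehicle. Its change there was -0.12 (adjusted p = 0.14) as deposited and -0.16 after rescaling (adjusted p = 0.018). MCOLN1, a lysosomal calcium channel, had 12.5, 13.5 and 12.4 TPM with doxycycline in COLO 201 and 9.40, 10.5 and 9.34 TPM with vehicle, a rise of 0.36 ± 0.06 (adjusted p = 2.6e-04). LAMP2, the receptor of chaperone-mediated autophagy in one of its forms, had overlapping columns in COLO 201, 45.3, 50.2 and 41.8 TPM with doxycycline and 39.7, 42.5 and 36.8 TPM with vehicle. LAMP2 passed the test at 0.20 ± 0.07 (adjusted p = 0.020), and so did SCARB2, the receptor that carries glucocerebrosidase to lysosomes, at 0.13 (adjusted p = 0.038); after rescaling neither passed, and SCARB2 stood at -0.01.

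NPC1, the membrane protein that exports cholesterol from the lysosome, was the one called in H1975 as deposited. It had 77.3, 77.8 and 79.8 TPM with doxycycline there, against 52.7, 55.1 and 54.8 TPM with vehicle, and rose by 0.52 ± 0.06 (adjusted p = 2.9e-05). In COLO 201 its change was 0.08. The RKO columns did not overlap, with 17.3, 22.2 and 19.4 TPM with doxycycline and 15.3, 13.9 and 12.3 TPM with vehicle; the change was 0.48 ± 0.20 (adjusted p = 0.096) as deposited and 0.85 without vehicle column 1 and rescaled (adjusted p = 4.3e-07).

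Of 6 proteases, 5 rose in COLO 201, 2 rose and 2 fell in H1975, and 1 fell in RKO. Among all genes tested, 45.9% rose in COLO 201, 23.9% rose and 14.6% fell in H1975, and 16.1% fell in RKO. TPP1, which cuts tripeptides from protein ends, and CTSL, the cysteine protease cathepsin L, rose in COLO 201 and in H1975. TPP1 had 70.8, 76.3 and 65.9 TPM with doxycycline and 53.1, 52.6 and 50.6 TPM with vehicle in COLO 201 (0.44 ± 0.05, adjusted p = 1.6e-05), and 182, 180.2 and 174 TPM with doxycycline and 133, 144 and 139 TPM with vehicle in H1975 (0.37 ± 0.06, adjusted p = 5.1e-04). CTSL had 12.0, 10.7 and 12.2 TPM with doxycycline and 7.49, 7.99 and 6.70 TPM with vehicle in COLO 201 (0.59 ± 0.07, adjusted p = 1.9e-05), and 356, 344 and 345 TPM with doxycycline and 264, 274 and 254 TPM with vehicle in H1975 (0.40 ± 0.06, adjusted p = 2.1e-04). No arms of either gene overlapped in these lines.

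CTSD and CTSZ passed in opposite directions in these lines. CTSD, the aspartic protease cathepsin D, had 450.1, 459 and 471 TPM with doxycycline in COLO 201, against 365, 382 and 381 TPM with vehicle (0.29 ± 0.04, adjusted p = 4.0e-05). In H1975 it had 177, 203 and 161 TPM with doxycycline, against 217, 205 and 246 TPM with vehicle (-0.30 ± 0.09, adjusted p = 0.015), and the call was lost without vehicle column 1 or vehicle column 3. CTSZ, a carboxypeptidase, had 297, 295 and 311 TPM with doxycycline and 249.9, 247 and 249 TPM with vehicle in COLO 201 (0.27 ± 0.04, adjusted p = 4.8e-05), but 158, 161 and 159.8 TPM with doxycycline and 189, 190.2 and 181 TPM with vehicle in H1975 (-0.22 ± 0.06, adjusted p = 0.010). The H1975 call of CTSZ was lost without doxycycline column 1. Tested directly in a joint fit of all lines, the difference between COLO 201 and H1975 was 0.60 for CTSD (adjusted p = 0.057) and 0.50 for CTSZ (adjusted p = 0.081), and after rescaling 0.50 (adjusted p = 0.044) and 0.41 (adjusted p = 0.016). The joint fit has 1 estimate of each gene's spread over all lines, so the RKO columns also weigh on these p-values.

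CTSA, the carboxypeptidase that also shields neuraminidase and galactosidase in a complex, had 138, 139 and 145 TPM with doxycycline in COLO 201, against 95.8, 102 and 99.2 TPM with vehicle (0.50 ± 0.04, adjusted p = 5.2e-07). CTSB, the cysteine protease cathepsin B, was the protease that fell in RKO, and the fall was smaller without vehicle column 1. It had 13.4, 17.98 and 14.9 TPM with doxycycline, against 138, 24.5 and 20.8 TPM with vehicle, a change of -1.38 ± 0.38 (adjusted p = 0.012) that was -0.53 without vehicle column 1 (adjusted p = 0.091) and -0.23 when the rest were also rescaled (adjusted p = 0.0024). CTSL in RKO, with 52.5, 74.2 and 57.6 TPM with doxycycline and 244, 78.0 and 70.1 TPM with vehicle, did not pass (-0.85 ± 0.31, adjusted p = 0.055) and stood at 0.04 without vehicle column 1 and rescaled. That column also held 361 TPM of VIM, 127 TPM of SPARC and 111 TPM of CAV1, genes of mesenchymal cells, and the part of such RNA in these changes was not tested.

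Enzymes that strip sugars, sulfate and fatty acids rose in COLO 201 in 7 of 8 cases, where 45.9% of all genes rose. None of the 8 passed in H1975, where 23.9% of all genes rose and 14.6% fell. In RKO 1 fell, where 16.1% of all genes fell. GLB1, lysosomal beta-galactosidase, had 37.6, 32.9 and 34.1 TPM with doxycycline in COLO 201, against 23.0, 25.4 and 24.4 TPM with vehicle (0.50 ± 0.06, adjusted p = 1.1e-05). NEU1, the lysosomal sialidase, had 43.9, 40.2 and 44.4 TPM with doxycycline in COLO 201 and 31.4, 32.7 and 32.8 TPM with vehicle (0.39, adjusted p = 2.1e-05). HEXA, the alpha subunit of beta-hexosaminidase, had 55.5, 50.7 and 53.3 TPM with doxycycline in COLO 201 and 41.3, 43.0 and 41.1 TPM with vehicle (0.34, adjusted p = 4.2e-05). All 3 had every doxycycline column above every vehicle column.

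GLA, alpha-galactosidase A, had 61.9, 52.5 and 55.8 TPM with doxycycline in COLO 201, against 43.1, 42.0 and 41.8 TPM with vehicle (0.41, adjusted p = 4.2e-05). It went the other way in RKO, with 7.31, 9.28 and 6.86 TPM with doxycycline and 16.7, 10.9 and 9.87 TPM with vehicle (-0.59 ± 0.21, adjusted p = 0.044), a call that was lost without vehicle column 1 (-0.38, adjusted p = 0.23). GAA, which breaks down glycogen, changed by 0.54 in COLO 201, NAGLU, which acts on heparan sulfate, by 0.34 and PPT1, which removes palmitate from proteins, by 0.13. PPT1 was at 0.00 after rescaling. SGSH, the sulfamidase of heparan sulfate breakdown, was at 0.21 (adjusted p = 0.073). In RKO, NAGLU was at -0.52 (adjusted p = 0.065), and at -0.60 without vehicle column 1 (adjusted p = 0.0046).

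Among the luminal cofactors, GRN and NPC2 rose in COLO 201, where 45.9% of all genes rose, and none of the 3 passed in H1975 or RKO. Of all genes, 23.9% rose and 14.6% fell in H1975, and 2.09% and 16.1% in RKO. GRN, at chromosome 17 from 44345086 to 44353102 on the plus strand, encodes progranulin, a secreted protein that lysosomes process into granulins. It had 121, 120.4 and 119 TPM with doxycycline in COLO 201, against 77.5, 80.1 and 80.3 TPM with vehicle (0.59 ± 0.04, adjusted p = 7.3e-08), the replicate columns of each arm lying within a narrow range. NPC2, which hands cholesterol to NPC1, had 23.1, 24.7 and 23.4 TPM with doxycycline in COLO 201 and 18.2, 17.8 and 17.3 TPM with vehicle (0.40, adjusted p = 2.1e-05). PSAP, the precursor of the saposins, passed in no line and had among the highest levels, 497 ± 14.96 TPM with doxycycline and 486 ± 11.2 TPM with vehicle in COLO 201 (SD, n = 3 columns each).

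The proton pump rose in 5 of 6 tested members in COLO 201, with 1 that fell, and in 5 of 7 in H1975. None of its members passed in RKO. Of all genes, 45.9%, 23.9% and 2.09% rose in COLO 201, H1975 and RKO, and 15%, 14.6% and 16.1% fell. ATP6V0D2, on chromosome 8 from 85987323 to 86154228 on the plus strand, encodes the alternative d subunit of the membrane part of the pump, known from osteoclasts, macrophages and kidney. It had 31.9, 29.8 and 30.9 TPM with doxycycline in H1975, against 7.42, 9.44 and 8.36 TPM with vehicle. At 30.8 ± 1.04 and 8.41 ± 1.01 TPM the means stood at a ratio of 3.67, and the rise of 1.76 ± 0.08 (adjusted p = 4.4e-09) was the highest estimate among the tested members of any line. In RKO it had 0.514, 0.530 and 0.615 TPM with doxycycline, against 0.0172, 0 and 0 TPM with vehicle, and in COLO 201 0, 0 and 0.0126 TPM with doxycycline and 0.0156, 0 and 0 TPM with vehicle. Both lie under the minimum and were not tested as deposited. With small noncoding genes removed, ATP6V0D2 reached the minimum in RKO and rose by 1.67 ± 0.24 (adjusted p = 0.0057). It reached the minimum only through its doxycycline columns, so the filter itself favoured a rise and this test is no independent support for it.

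Its widely expressed counterpart ATP6V0D1, another gene with a CLEAR element shown above, had 76.3, 72.6 and 76.3 TPM with doxycycline in COLO 201, against 58.2, 61.2 and 60.0 TPM with vehicle (0.32 ± 0.04, adjusted p = 2.6e-05), and 0.17 was its change in H1975 (adjusted p = 0.069). ATP6V1B2, a nucleotide-binding subunit of the cytosolic part, rose in both lines. It had 77.4, 71.7 and 74.7 TPM with doxycycline and 56.8, 60.0 and 55.9 TPM with vehicle in COLO 201 (0.37 ± 0.04, adjusted p = 1.8e-05), and 131, 126 and 142 TPM with doxycycline and 91.0, 98.5 and 100.4 TPM with vehicle in H1975 (0.46 ± 0.07, adjusted p = 2.0e-04). ATP6V1A, the catalytic subunit, rose by 0.23 in COLO 201 (adjusted p = 0.0012) and 0.26 in H1975 (adjusted p = 0.013, and 0.070 without vehicle column 1). ATP6V1H, a regulatory subunit, rose by 0.27 (adjusted p = 5.2e-04) and 0.26 (adjusted p = 0.018), the H1975 call being lost without doxycycline column 3 or vehicle column 1.

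ATP6AP1, an accessory protein of pump assembly, had 95.2, 92.6 and 95.3 TPM with doxycycline and 77.9, 79.6 and 78.9 TPM with vehicle in COLO 201 (0.26 ± 0.04, adjusted p = 7.8e-05). ATP6V1D, a subunit of the rotating stalk, fell by 0.14 in COLO 201 (adjusted p = 0.024) and rose by 0.22 in H1975 (adjusted p = 0.019), and each call was lost when any of 3 columns was left out. In the joint fit, whose spread the RKO columns enter too, the difference between those lines was -0.36 (adjusted p = 0.19) as deposited. It was -0.45 after rescaling (adjusted p = 1.5e-04). In RKO the pump members did not pass as deposited, and 5 rose and 1 fell without vehicle column 1 and rescaled, beside 29.1% and 29.8% of all genes.

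The genes that start autophagy and grow its membrane passed in few cases, 1 up and 1 down of 5 in COLO 201, 1 up and 1 down of 5 in H1975 and none in RKO. The shares of all genes up and down were 45.9% and 15% in COLO 201, 23.9% and 14.6% in H1975, and 2.09% and 16.1% in RKO. ATG9A, the transmembrane protein of the vesicles that seed autophagosomes, had 23.4, 23.1 and 22.0 TPM with doxycycline in COLO 201, against 14.4, 14.3 and 14.8 TPM with vehicle (0.62 ± 0.05, adjusted p = 4.4e-07). The arms of ATG9A overlapped in H1975, with 19.99, 22.6 and 20.5 TPM with doxycycline and 21.5, 20.8 and 24.1 TPM with vehicle (-0.07, adjusted p = 0.52), and in RKO, with 9.95, 13.1 and 12.6 TPM with doxycycline and 10.4, 11.9 and 10.7 TPM with vehicle (0.10, adjusted p = 0.75). ULK1, the kinase that starts autophagy, fell in H1975, with 8.76, 9.37 and 8.53 TPM with doxycycline and 12.3, 11.4 and 14.4 TPM with vehicle (-0.47 ± 0.09, adjusted p = 0.0010).

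BECN1, a subunit of the lipid kinase complex, fell by 0.16 ± 0.04 in COLO 201 (adjusted p = 0.0049), with 50.5, 53.4 and 50.3 TPM with doxycycline and 56.6, 57.9 and 58.0 TPM with vehicle. In H1975 it had 102, 101 and 109 TPM with doxycycline and 88.0, 96.5 and 92.3 TPM with vehicle, and did not pass (0.17, adjusted p = 0.055). Its partner UVRAG rose in H1975, with 20.3, 19.4 and 20.7 TPM with doxycycline and 15.9, 15.8 and 16.9 TPM with vehicle (0.29 ± 0.07, adjusted p = 0.0053). WIPI2, the relative of WIPI1 that recruits the conjugation machinery, passed in no line.

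The ATG8 proteins, their conjugation enzymes and the receptor p62 passed in both directions within the role: 3 rose and 2 fell of 6 in COLO 201, 2 rose and 1 fell in H1975, and 2 rose and 1 fell in RKO. Beside them, 45.9% of all genes rose and 15% fell in COLO 201, 23.9% and 14.6% in H1975, and 2.09% and 16.1% in RKO. GABARAPL2, on chromosome 16 from 75566351 to 75577881 on the plus strand, was the one tested member that rose in every line. It had 49.9, 71.8 and 55.7 TPM with doxycycline in RKO, against 30.2, 37.2 and 30.8 TPM with vehicle. In COLO 201 it had 115, 114 and 109 TPM with doxycycline, against 89.5, 93.6 and 85.5 TPM with vehicle, and in H1975 152, 144 and 160.2 TPM with doxycycline, against 122, 130.3 and 123 TPM with vehicle. The changes were 0.82 ± 0.22 (adjusted p = 0.010), 0.33 ± 0.04 (adjusted p = 3.7e-05) and 0.28 ± 0.07 (adjusted p = 0.0048). The RKO call was lost without doxycycline column 3 (adjusted p = 0.059) and kept without vehicle column 1 (0.77, adjusted p = 0.012).

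GABARAPL1, its relative, rose in both colon lines. It lies on chromosome 12 from 10212458 to 10223130 on the plus strand and had 9.05, 9.15 and 9.27 TPM with doxycycline in COLO 201, against 3.96, 3.90 and 4.00 TPM with vehicle, a ratio of 2.32 (1.04 ± 0.06, adjusted p = 2.8e-08). In RKO it had 4.60, 5.80 and 5.02 TPM with doxycycline and 3.90, 2.41 and 2.21 TPM with vehicle (0.70 ± 0.19, adjusted p = 0.011), and the call was lost when any doxycycline column or vehicle column 3 was left out. Without vehicle column 1 the RKO change was 0.89 (adjusted p = 2.2e-04). In H1975 it had 24.6, 23.3 and 23.2 TPM with doxycycline and 20.2, 23.0 and 21.2 TPM with vehicle (0.14 ± 0.07, adjusted p = 0.15), so that the columns did not overlap but the test was not passed.

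SQSTM1, the gene of the cargo receptor p62, lies on chromosome 5 from 179806398 to 179838078 on the plus strand. It had 204, 194 and 199 TPM with doxycycline in COLO 201, against 95.2, 103 and 104 TPM with vehicle (0.98 ± 0.04, adjusted p = 4.7e-09). In H1975 the columns were intermixed, with 466, 501 and 429 TPM with doxycycline and 448, 448 and 514 TPM with vehicle (-0.02 ± 0.08, adjusted p = 0.89). They were intermixed in RKO as well, with 101, 131 and 122 TPM with doxycycline and 134, 118 and 99.6 TPM with vehicle (0.01 ± 0.23, adjusted p = 0.97). Without vehicle column 1 and rescaled, SQSTM1 rose by 0.43 in RKO (adjusted p = 1.1e-04).

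MAP1LC3B, the gene of the widely used autophagosome marker LC3B, was the one member that fell in both COLO 201 and H1975. It lies on chromosome 16 from 87383995 to 87404779 on the plus strand. It had 28.8, 28.2 and 28.0 TPM with doxycycline in COLO 201, against 49.9, 51.9 and 47.6 TPM with vehicle (-0.79 ± 0.04, adjusted p = 3.5e-08), and 185, 167 and 209 TPM with doxycycline in H1975, against 253, 284 and 271 TPM with vehicle (-0.53 ± 0.08, adjusted p = 2.2e-04). In RKO it had 34.7, 56.0 and 42.6 TPM with doxycycline and 50.7, 54.5 and 46.0 TPM with vehicle (-0.20 ± 0.23, adjusted p = 0.55). The near-identical copy MAP1LC3B2 averaged 3.54 TPM with doxycycline and 5.35 TPM with vehicle in COLO 201, and 20.7 and 29.4 TPM in H1975. Reads shared between the copies could have been split by the counting, so the level of each is uncertain.

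ATG5, part of the enzyme complex that couples ATG8 proteins to lipid, fell in both colon lines. It had 3.46, 5.28 and 3.68 TPM with doxycycline in RKO, against 7.09, 6.48 and 6.07 TPM with vehicle (-0.57 ± 0.18, adjusted p = 0.030), a call lost in 5 of the 6 fits that left out 1 column. In COLO 201 it fell by 0.25 (adjusted p = 0.0018), and in H1975 its change was 0.01. ATG7, the activating enzyme of the same pathway, rose by 0.22 in H1975 (adjusted p = 0.035), and the call was lost on leaving out any of 4 columns.

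**Figure D4:**
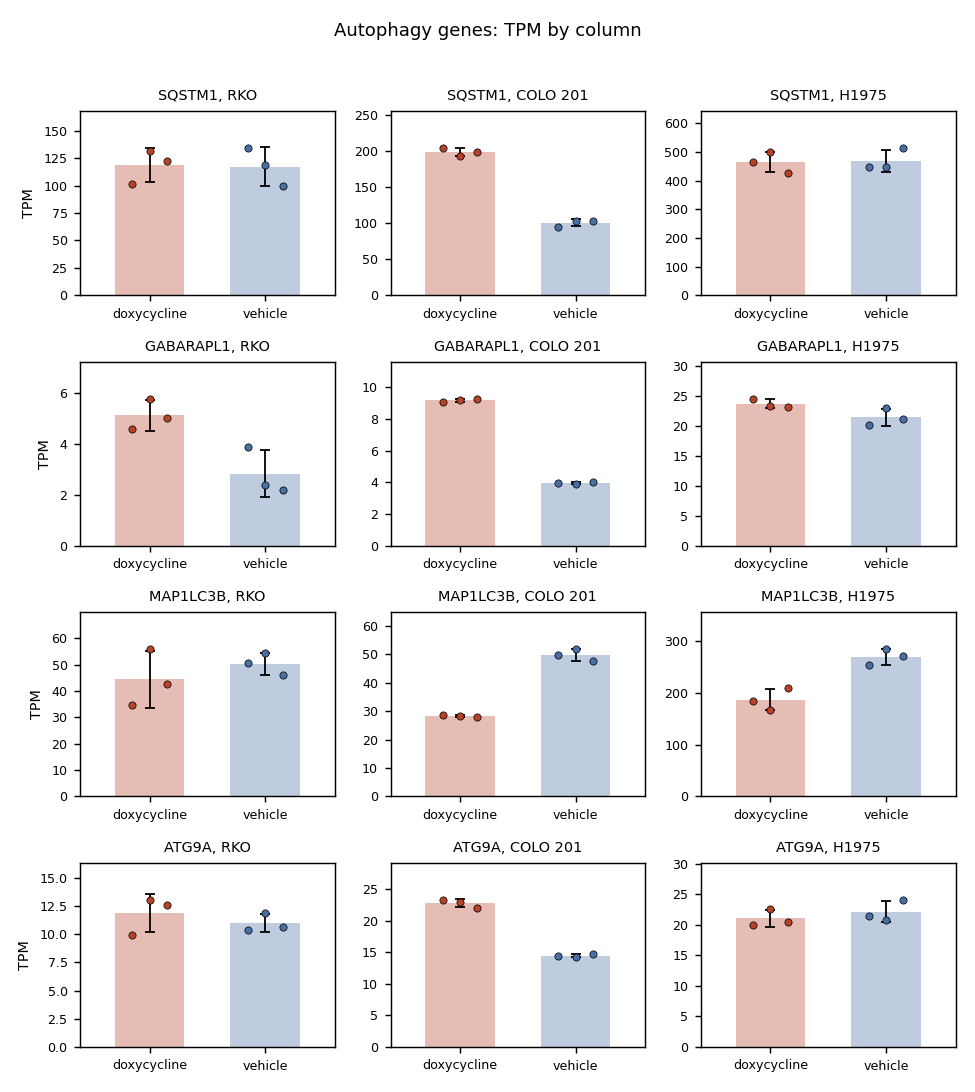
TPM of SQSTM1, GABARAPL1, MAP1LC3B and ATG9A in every column, with doxycycline on the left and vehicle on the right, by line; points are columns, bars are means and each panel has its own TPM axis from 0. In COLO 201 the doxycycline columns of SQSTM1, GABARAPL1 and ATG9A lie above the vehicle columns and those of MAP1LC3B below; in H1975 those of MAP1LC3B lie below and those of GABARAPL1 just above, at 23.2 TPM or more against 23.0 TPM or less.

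Of the genes that carry nutrient signals at the lysosome, RRAGD stood out in H1975. RRAGD encodes a Rag GTPase that acts on TFEB and TFE3, and lies on chromosome 6 from 89364636 to 89412270 on the minus strand. It had 18.6, 17.0 and 18.1 TPM with doxycycline in H1975, against 10.9, 12.0 and 11.1 TPM with vehicle (0.62 ± 0.07, adjusted p = 2.9e-05). It was listed at 0 in all COLO 201 columns and in all RKO columns except vehicle column 1, at 0.0713 TPM. FLCN, the folliculin subunit that activates RagC and RagD, rose by 0.15 in COLO 201 (adjusted p = 0.037) and stood at 0.03 after rescaling. SMCR8, the partner of C9ORF72, passed in no line as deposited; in H1975 it averaged 66.1 ± 0.941 TPM with doxycycline and 59.5 ± 2.04 TPM with vehicle (SD, n = 3 columns each; adjusted p = 0.079).

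Across lines, 6 of the tested members rose in both COLO 201 and H1975: ATP6V1A, ATP6V1B2, ATP6V1H, CTSL, GABARAPL2 and TPP1. In COLO 201 alone 21 members were called and in H1975 alone 7, namely ATG7, ATP6V0D2, MITF, NPC1, RRAGD, ULK1 and UVRAG. PSAP, SGSH, SMCR8 and WIPI2 passed in no line as deposited. The shares of all genes with these patterns were not counted, so nothing is read from the counts. A call in 1 line and not in another does not show a difference, which was tested in the joint fit of all 18 columns over the 42 members that reached 1 TPM in every line, CD68, WIPI1 and C9ORF72 left aside.

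Between COLO 201 and H1975 the change differed for 4 members, beside 7.2% of all genes. SQSTM1 rose more in COLO 201 than in H1975 by 0.99 ± 0.17 (adjusted p = 6.7e-04), GABARAPL1 by 0.90 (adjusted p = 0.0023) and ATG9A by 0.69 (adjusted p = 0.0049), and ULK1, which fell in H1975, differed by 0.48 (adjusted p = 0.047). These 4 also differed after rescaling, when 15 members did (26.5% of all genes), 8 of them with the higher change in COLO 201. Between RKO and COLO 201, 20 members differed as deposited (48.5% of all genes), 3 of them with the higher change in RKO. After rescaling 18 differed (38.2%), 13 of them higher in RKO, and without vehicle column 1 and rescaled 22 differed (50.5%), 10 of them higher in RKO. Between RKO and H1975, 9 differed as deposited (41.4%), 2 of them higher in RKO, against 20 (34.3%) and 15 after rescaling and 22 (44.9%) and 17 without vehicle column 1 and rescaled. In the fit without vehicle column 1 the RKO columns alone were rescaled, COLO 201 and H1975 staying as deposited. The prevailing direction of the RKO differences as deposited turned on rescaling all lines. Without vehicle column 1 and with RKO alone rescaled, it turned for RKO against H1975 but not for RKO against COLO 201. GABARAPL2 rose more in RKO than in COLO 201 by 0.49 (adjusted p = 0.018) and than in H1975 by 0.54 (adjusted p = 0.013), and without vehicle column 1 and rescaled by 0.75 and 0.80.

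**Figure D5:**
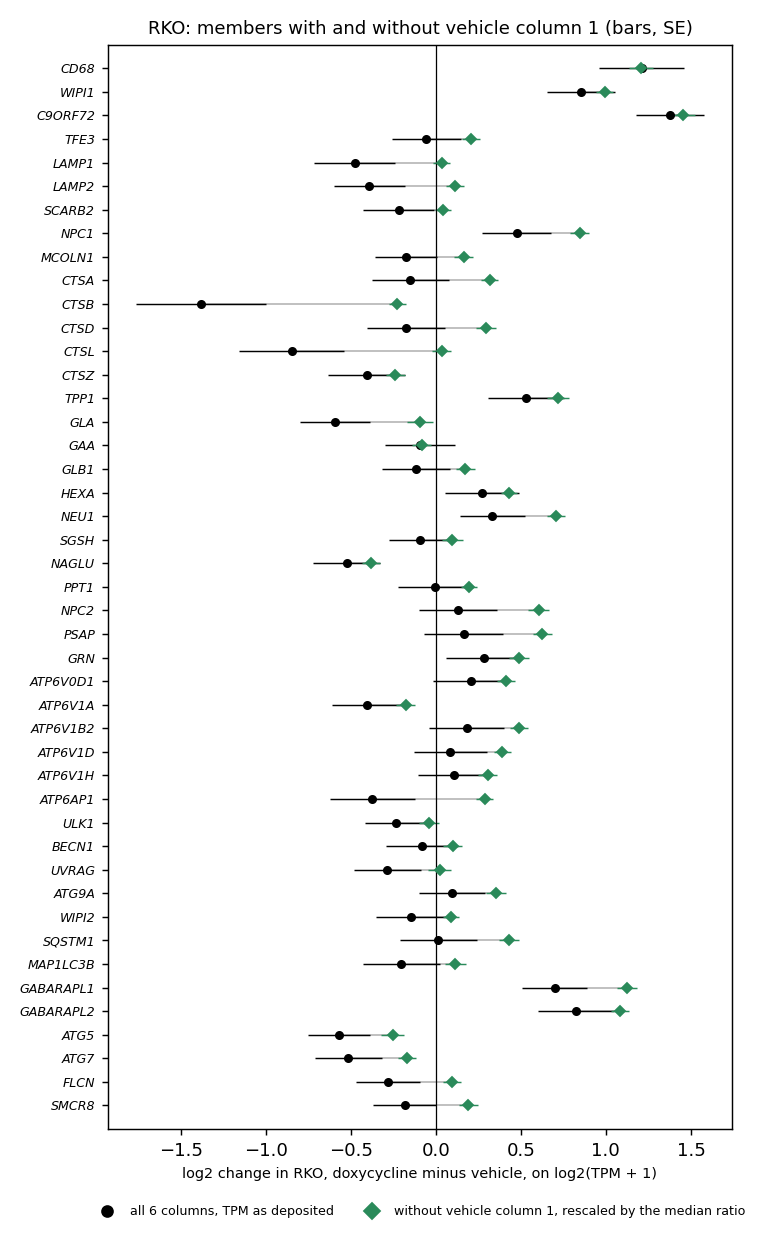
Change of each tested member in RKO with doxycycline minus vehicle on log2(TPM + 1), with all 6 columns as deposited (black circles) and without vehicle column 1 after rescaling by the median ratio (green diamonds); bars are the SE. CTSB moves from -1.38 to -0.23 and CTSL from -0.85 to 0.04, most diamonds lie to the right of their circles, and the bars shorten.

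In RKO, vehicle column 1 stood apart for some members. Against the mean of vehicle columns 2 and 3, vehicle column 1 held 6.07 times the level of CTSB, 3.29 times that of CTSL and 2.14 times that of ATP6AP1, and 0.505 times that of CD68, 0.518 times that of GAA and 0.584 times that of C9ORF72. None of the 5 RKO calls was kept in every fit that left out 1 column, against 29 of 34 in COLO 201 and 11 of 17 in H1975. A lost call did not always come with a smaller change. GABARAPL2 stood at 0.86 in the fit that lost it, and GABARAPL1 at 0.58 to 0.76. Both calls were kept without vehicle column 1. Without that column and rescaled, GABARAPL2 rose by 1.08 (adjusted p = 8.7e-08) and TPP1 by 0.72. Of the roles, 4 of 8 glycosidases and their like rose and 1 fell, 3 of 6 proteases rose and 2 fell, and all 3 luminal cofactors rose. Among all genes, 29.1% rose and 29.8% fell without that column and rescaled.

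Other genes of the same pathways, from lists of hydrolases, membrane proteins, pump subunits, autophagy factors, nutrient signalling and delivery to lysosomes, were read beside the members. In COLO 201, 80 of 145 tested rose and 17 fell; in H1975, 35 of 146 rose and 22 fell; in RKO, 3 of 137 rose and 10 fell. Of all genes 45.9% rose and 15% fell in COLO 201, 23.9% and 14.6% in H1975, and 2.09% and 16.1% in RKO. After rescaling the counts were 53 and 35 (27.3% and 29.7% of all genes), 31 and 31 (21.2% and 18.5%), and 40 and 6 (13.8% and 14%). In COLO 201 the hydrolases rose in 21 of 31 cases and fell in 2, with CTSC, which activates granule proteases, at 0.74 and SMPD1, acid sphingomyelinase, at 0.74. Among the genes that fell there were ATP6V1C2, a pump subunit, at -1.21 and TPCN2, a lysosomal cation channel, at -0.85. In H1975 hydrolases rose in 3 of 33 cases and fell in 9, among them CTSS at -0.65 and CTSF at -0.54, both cysteine cathepsins. Autophagy factors rose in 13 of 39 cases and fell in 3 in H1975, with EPG5, a tether of autophagosome and lysosome, at 0.82 and PLEKHM1, an adaptor in the same fusion step, at 0.58. PLEKHM1 rose in RKO too, by 1.03, and SESN2, a leucine sensor, rose by 0.78 in RKO and 0.44 in H1975. Of those that fell in RKO, MAP1LC3C, another LC3 gene, stood at -1.14, AP1M1, a clathrin adaptor subunit, at -0.81, the hydrolases GUSB and ARSB at -0.81 and -0.77, and LAMTOR3, a Ragulator subunit, at -0.72. FNIP2, a partner of FLCN, rose by 0.87 in H1975 and by 0.45 in COLO 201.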

How the data were processed

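Polyadenylated RNA was sequenced after a stranded library kit, per the labels' protocols. The authors deposited TPM values, 1 table per line; STAR, DESeq2 and GRCh38 are named in the submitters' processing notes, without versions, and the counting step is not given in the sources used here. In COLO 201, 28 entries named as dates were left out.

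Values were used as log2(TPM + 1) for genes with a mean of at least 1 TPM in the line. Doxycycline was compared with vehicle within each line in limma 3.58.1 (R 4.3.3) with a variance trend, and p-values were adjusted over all genes tested. A gene was called at an adjusted p under 0.05. Differences between lines came from 1 joint fit. The code was tested on simulated data with known changes. At a change of size 1 it recovered 60 of 100 changed genes in RKO, 97 in COLO 201 and 100 in H1975. At size 1.5 it recovered 82, 100 and 100.

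Members and lists were chosen with earlier results of these data known. Every member is accounted for; per-column values are given for those called in at least 1 line, up to 4 per role by smallest adjusted p, and for CD68, WIPI1, C9ORF72, ATP6V0D2, TFEB, TFE3 and MITF. The per-column values of ATG5 are given beyond this rule. Of the other pathway genes, the 2 called with the largest change per list and line could be named.

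Alternatives were pseudocounts of 0.1 and 5, no minimum or a minimum of 5 TPM, rescaling by the median ratio, removal of small noncoding and mitochondrial genes, no trend, the column number as a replicate block, and each column left out. Column numbers are not tied to sample titles. Depth is unknown, and 3 columns per arm limit the precision.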

Additional observations from a re-analysis of the deposited data

Results flagged for a closer look

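The change with doxycycline differed between lines for some members by the interaction term of the joint limma fit, after adjustment over all genes. Between COLO 201 and H1975 the differences in log2 change were 0.48 for ULK1, 0.69 for ATG9A, 0.99 for SQSTM1 and 0.90 for GABARAPL1.

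Between RKO and COLO 201, RKO stood higher by 0.40 for NPC1, 0.59 for MAP1LC3B and 0.49 for GABARAPL2. It stood lower among the membrane proteins, at -0.71 for LAMP1, -0.59 for LAMP2 and -0.54 for MCOLN1, and among the proteases, at -0.66 for CTSA, -1.38 for CTSB, -0.47 for CTSD, -1.44 for CTSL and -0.68 for CTSZ. The glycosidases GLA, GAA, GLB1 and NAGLU differed by -1.002, -0.63, -0.62 and -0.86. ATP6V1A differed by -0.64, ATG9A by -0.52, SQSTM1 by -0.96, ATG7 by -0.59 and FLCN by -0.43.

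Between RKO and H1975 the difference was 0.56 for GABARAPL1 and 0.54 for GABARAPL2. It was -1.25 for CTSL, -0.58 for GLA, -0.65 for NAGLU, -0.67 for ATP6V1A, -0.58 for UVRAG, -0.57 for ATG5 and -0.73 for ATG7. The RKO columns hold the small noncoding RNA share and vehicle column 1 described above, and the median change of all genes was -0.26 in RKO, 0.12 in COLO 201 and 0.06 in H1975. After rescaling, 8 of the 20 differences between RKO and COLO 201 still passed with the same sign. The 12 that did not were LAMP1 (-0.29), LAMP2 (-0.20), MCOLN1 (-0.18), CTSA (-0.23), CTSB (-0.96), CTSD (-0.04), CTSL (-1.02), CTSZ (-0.25), GAA (-0.27), ATG9A (-0.12), ATG7 (-0.27) and FLCN (-0.06). Without vehicle column 1 and with the RKO columns alone rescaled, 15 of the 20 passed, LAMP2, MCOLN1, CTSD, ATG7 and FLCN not being among them. Between RKO and H1975, 7 of the 9 passed in either case: CTSL (-0.91) and GLA (-0.27) did not after rescaling, and GLA (-0.08) and ATG5 (-0.26) did not when vehicle column 1 was left out too, where CTSL stood at -0.36. All 4 differences between COLO 201 and H1975 passed after rescaling. Arms of 3 columns are too small for the search for a single outlying column.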

How the results depend on the processing

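RKO results moved most with the processing, and the cause was not tested. Its 2 members called higher became 1 with no minimum or a minimum of 5 TPM, 13 after rescaling and 13 without small noncoding genes. Leaving out vehicle column 1 together with rescaling made them 23, and together with removing small noncoding genes (chosen after seeing the data) 24; left out alone it gave 2. Its 3 members called lower became 6 with a pseudocount of 0.1, 0 with 5, 0 with no minimum, 1 with no trend, and 6 and 6 in the combined settings, against 1 without vehicle column 1 alone. Other pathway genes called higher in RKO (3) became 5 with a pseudocount of 0.1, 0 with no minimum, 40 after rescaling, 33 without small noncoding genes, 7 with the replicate block, and 66 and 59 in the combined settings (4 without the column alone). Those called lower (10) became 6 with a pseudocount of 5, 0 with no minimum, 6 with a minimum of 5 TPM, 6 after rescaling, 6 without small noncoding genes, and 24 and 25 in the combined settings (10 without the column alone). MUC1 in RKO did not pass with a pseudocount of 5 (-0.83), no minimum (-1.88), rescaling (-1.77), small noncoding genes removed (-2.78) or the block (-1.88). It passed with a pseudocount of 0.1 (-3.60), with no trend (-1.88), and without vehicle column 1 and small noncoding genes (-1.61). Rescaling COLO 201 gave 7 members lower, 53 other genes higher and 35 lower. Members differing between COLO 201 and H1975 (4) became 9 and 10 with a pseudocount of 5 and no minimum, 2 with a minimum of 5 TPM, 15 rescaled, 12 without small noncoding and mitochondrial genes and 8 with the block. Between RKO and H1975 (9) they became 20 rescaled, 18 without small noncoding and mitochondrial genes, and 22 without vehicle column 1 and with RKO alone rescaled.

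With each column left out, the lines RKO, COLO 201 and H1975 gave 0 to 2, 26 to 29 and 9 to 14 members higher and 0 to 4, 3 to 4 and 3 to 4 lower. Other pathway genes higher ran from 1 to 4, 71 to 82 and 20 to 36, and lower from 1 to 15, 15 to 19 and 14 to 25. MUC1 ran from -2.40 to -1.86 in RKO, where it was under the minimum without vehicle column 1 (-0.90, not tested), and from -2.49 to -2.36 and -3.57 to -3.38 in the others. Members differing ran from 3 to 12 (COLO 201 and H1975), 15 to 28 (RKO and COLO 201) and 8 to 14 (RKO and H1975). Leaving out RKO vehicle column 1 gave the 12 between COLO 201 and H1975, since the joint fit shares its spread over all lines.

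Among members called in either fit, signs turned for TFE3 in RKO after rescaling (0.23), and 12 members called in neither fit turned too. Without vehicle column 1 and rescaled they turned for TFE3 (0.21), MCOLN1 (0.16), CTSA (0.32), CTSD (0.30), GLB1 (0.17), PPT1 (0.20), ATP6AP1 (0.29) and SMCR8 (0.19), and for 10 called in neither. With small noncoding genes removed instead they turned for TFE3 (0.19), CTSA (0.30), CTSD (0.27), GLB1 (0.15), PPT1 (0.17), ATP6AP1 (0.27) and SMCR8 (0.18), and for 11 called in neither. In COLO 201 rescaling turned SCARB2 (-0.0063) and SMCR8 (-0.12), and 5 called in neither; in H1975 it turned 3 called in neither. A call was kept under every alternative for 0 of 5 members in RKO, 28 of 34 in COLO 201 and 11 of 17 in H1975. Same-numbered columns correlated at -0.01 to 0.29, -0.05 to 0.28 and -0.42 to 0.16. In no line did every column correlate best with its own number, though some did, and 3 columns per arm cannot settle whether columns were paired. With the replicate block, 2 members were higher and 2 lower in RKO, 30 and 4 in COLO 201, and 11 and 4 in H1975.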
